A study of Mus musculus with 8 samples.

Results

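The genes described here are the chromatin modifier and DNA methylation genes, chosen by symbol among the genes that carry a listed peak of m6A (N6-methyladenosine), the methylated form of adenosine in RNA. A gene was a member if its symbol began with Kdm, Kmt, Setd, Nsd, Ehmt, Prdm, Hdac, Chd, Brd, Arid, Smarc, Dnmt, Uhrf or Tet, followed by a digit or a letter from a to d. The rule found 90 genes among the 8733 genes with a peak in any list, and all 90 were in the count table of 53465 genes. Symbols came from the peak lists, so that having at least 1 peak was a condition of membership. The study sequenced RNA of testicular spermatogenic cells of C57BL/6 mice, 12-week-old, either wild type (WT) or Alkbh5-/- (KO) and so without an RNA demethylase of m6A. Cells are called PA and RO in the labels, while the series title speaks of pachytene spermatocytes, cells in meiotic prophase, and round spermatids, the cells that follow meiosis. For each genotype and cell fraction there was 1 immunoprecipitated library, made from RNA fragments bound by an antibody against m6A, and 1 input library of unselected fragments, 8 samples in all. As each group is 1 library, no difference could be checked in replicates or tested, and the values describe these libraries.

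Chromatin modifiers act on the histones that package DNA or on the DNA itself. Methyltransferases and demethylases write and erase methyl groups on histone lysines, deacetylases remove acetyl groups, bromodomain proteins bind acetylated histones, and remodellers use ATP to move or evict nucleosomes. In the male germ line these proteins mark meiotic recombination sites, silence transposons and the sex chromosomes in meiosis, and precede the exchange of histones for protamines in spermatids.

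By the gene family in their symbols, 28 members were grouped as methyltransferases, 16 as demethylases, 4 as deacetylases, 29 as remodellers, 6 as bromodomain proteins and 7 under DNA methylation. Some names do not match the group's activity. Setd3 and Setd6 methylate proteins other than histones, Uhrf1bp1 and Uhrf1bp1l are named for UHRF1 but are not UHRF enzymes, and Kdm4dl and Smarca5-ps are pseudogenes. The remodellers as grouped here take in Chd3os, named for the opposite strand of Chd3, and DNA-binding proteins of the ARID family such as Arid3a. The RefSeq gene table (GRCm38.p6) held 118 protein-coding symbols that fit the pattern, and 31 of them had no listed peak. Deacetylases had the fewest: 4 of the 11 Hdac genes had a peak, and Hdac2, Hdac3, Hdac7, Hdac8, Hdac9, Hdac10 and Hdac11 had none. All 3 Tet, 3 Nsd and 2 Ehmt genes had a peak, as did 7 of 8 Kmt, 15 of 18 Kdm, 9 of 10 Chd, 9 of 12 Smarc and 8 of 14 Prdm genes. Of the genes that maintain or set up DNA methylation, Dnmt1 and Dnmt3a had a peak, and Dnmt3b, Dnmt3l, Uhrf1 and Uhrf2 had none.

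Short stretches of peak sequence could be read where a peak reached into a RefSeq promoter window (250 bases before to 50 after a transcript start, GRCm38.p6). Of the 64 members with such a window, 6 had an overlapping peak. Such stretches are shown for Kdm5a, a demethylase of lysine 4 on histone H3 (H3K4), because its 5′ untranslated peak was listed in KO PA, KO RO and WT RO and not in WT PA. The KO PA and KO RO peaks held the letters GGACT, the most frequent form of the m6A consensus, at 2 places of the readable stretch, and the WT RO peak, which ends earlier, at 1. Of stretches of 225 bases from all promoter windows, with each strand counted as a stretch of its own, 20% held GGACT at least once. At least 2 times it was 2.45%. The window belongs to Ccdc77, the neighbour on the opposite strand, and the letters are written along the Kdm5a strand with GGACT in capitals, from chr6:120364353-120364381 and chr6:120364464-120364492 (plus strand).
Kdm5a_1: tcctgcggtggcGGACTgatttagcagca
Kdm5a_2: gcgctcctgtgaGGACTcgttctcgtcct
The first bases of a peak of Chd9, a remodeller, are shown for contrast, because that peak began at the same base in all 4 lists. They lie at chr8:90932264-90932293 (plus strand).
Chd9_1: tgacatgccatcatgtagagcaataatgaa
The motif GGACT, and its forms with A or C in place of T, were searched for on the transcript's strand. They were not found in the 35 bases of the Chd9 peak that lay in the window, which says only that these letters are not there. The readable stretches of Setd1a (190 bases), Arid4b (36), Kdm2b (7) and Arid1a (3), all from WT RO peaks, held none of them either. Among members with a readable stretch only Kdm5a held GGACT.

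The 4 peak lists held 820 peaks of the members. In PA there were 187 peaks in 64 members in WT and 246 in 81 members in KO, and in RO 196 in 72 members and 191 in 74. The KO PA list thus held the most member peaks, 1.32 times those of WT PA, which is also the ratio over all genes (9931 against 7502 peaks). In RO the ratio of KO to WT peaks was 0.974 for the members and 0.939 for all genes. In PA, 49 of the 82 members with a peak in either genotype had more peaks in KO (59.8%, against 45.8% of all such genes), 23 had the same number and 10 had fewer. In RO 26 of 84 members had more peaks in KO, 33 had the same number and 25 had fewer. These were 31%, 39.3% and 29.8%, against 32.8%, 29.1% and 38.1% of all such genes.

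Members carried more peaks per gene than the average gene with a peak. In WT PA the mean was 2.92 peaks per member with a peak, against 1.59 over all genes, and 73.4% of those members had more than 1 peak, against 33.1% of all genes. In KO PA, WT RO and KO RO the means of the members were 3.04, 2.72 and 2.58, against 1.63, 1.62 and 1.59. The length and level of the transcripts, which bear on how many peaks can be called, were not matched in this comparison.

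**Figure D1:**
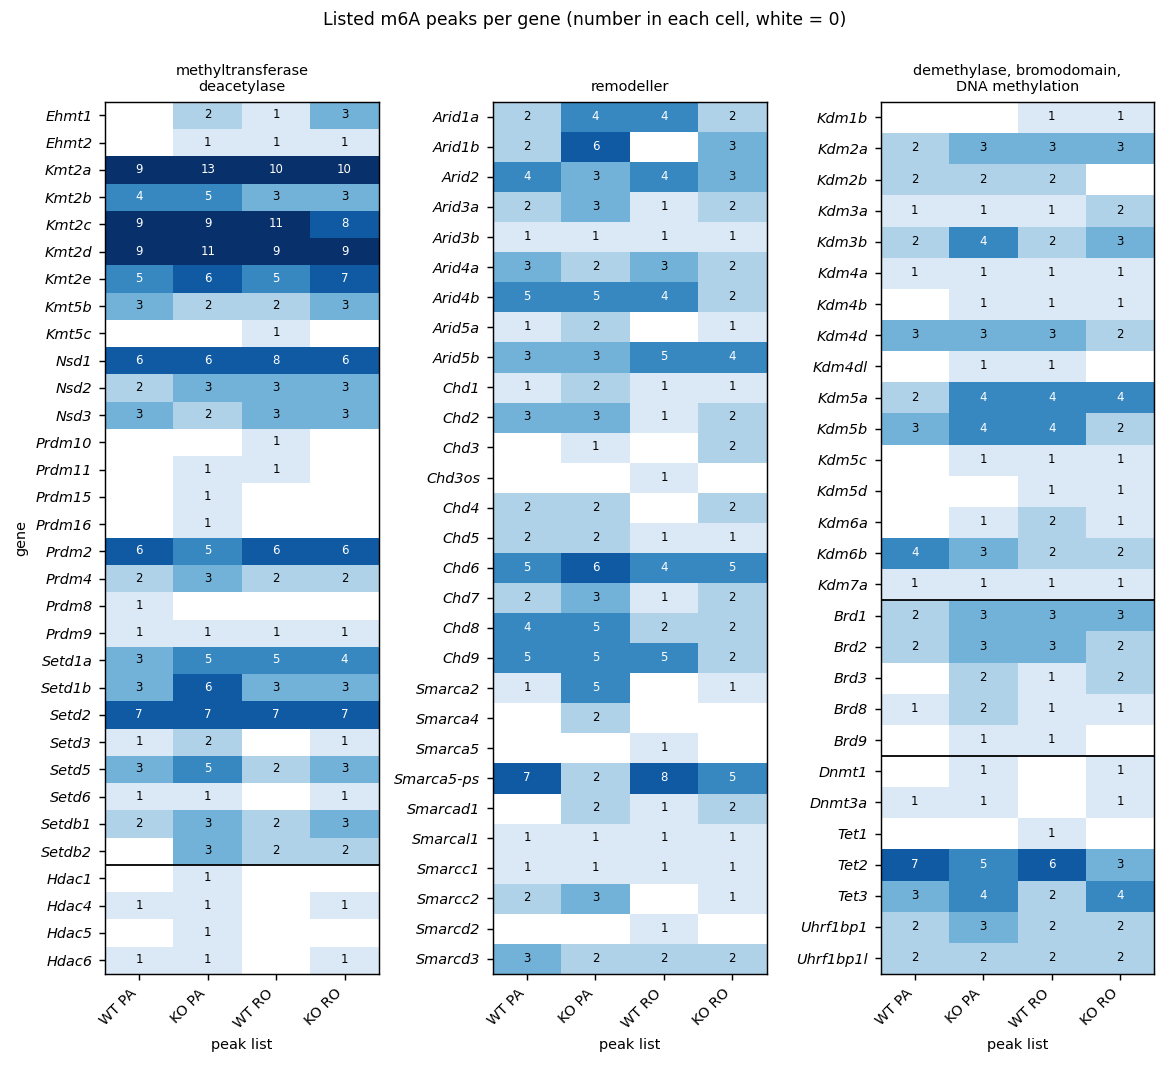
Number of listed m6A peaks in the member genes reported by name (rows, grouped by role) in each of the 4 peak lists (columns); darker cells hold more peaks and white cells none. Kmt2a, Kmt2c and Kmt2d carry 8 to 13 peaks in every list, and no deacetylase has a peak in the WT RO list.

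Among the methyltransferases, the genes with the most peaks were those of the large H3K4 methyltransferases. Kmt2a, the founding gene of that family, had 9 and 13 peaks in WT and KO PA and 10 and 10 in WT and KO RO. Kmt2d had 9, 11, 9 and 9 peaks in the same order, and Kmt2c 9, 9, 11 and 8. Nearly all of them lay in coding sequence: all peaks of Kmt2c, and 11 of 13 of Kmt2a in KO PA. Setd2, which trimethylates lysine 36 of histone H3 (H3K36), had 7 peaks in each of the 4 lists, all in coding sequence. Nsd1, a methyltransferase of the same lysine, had 6, 6, 8 and 6. Overlapping peaks of the lists were merged into regions, and all 6 regions of Setd2, all 6 of Nsd1 and all 4 of Prdm2 held a peak in every list. For Kmt2a and Kmt2c this held for 7 of 12 and 7 of 9 regions.

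Setd1b, which encodes the catalytic subunit of another H3K4 methyltransferase complex, had 3 and 6 peaks in WT and KO PA and 3 and 3 in WT and KO RO. Of its 7 regions, 2 were present in all lists and 3 in KO PA alone. The authors' deposited table gives each peak a fold, its enrichment after immunoprecipitation relative to input, and for the Setd1b region at chr5:123158447-123158926, in coding sequence, that fold was 26 and 178 in WT and KO PA and 12.6 and 344 in WT and KO RO. In the authors' deposited table it was the highest fold of any member peak in KO PA and in KO RO. The other region found in all lists, chr5:123147605-123148174, had folds of 23.2, 42.9, 120 and 14 in the authors' deposited table, in the same order. Since such a fold also moves with sequencing depth, it ranks peaks within a list and shows no change between lists.

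The highest folds in the other lists also belonged largely to methyltransferases, the group with the most member peaks. They held 80 of the 187 member peaks in WT PA, 89 of 196 in WT RO and 89 of 191 in KO RO. In WT PA the authors' deposited table gave 159 for a coding-sequence peak of Kmt2c, 142 for an exon peak of Setdb1, which trimethylates lysine 9 of histone H3 (H3K9), and 113 for Setd2. In WT RO the authors' deposited table gave 517 for Setd5, 213 for Setd2, and 202 both for Chd6, a remodeller, and for a coding-sequence peak of Kmt2d. In KO RO the authors' deposited table gave 243 for Prdm9, which marks meiotic recombination hotspots by H3K4 trimethylation, and 196 for Tet3, which oxidises methylated cytosines in DNA. Prdm9 had 1 peak in each list, at overlapping positions, and Kmt2c's top region at chr5:25372831-25373430 was likewise found in all 4.

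**Figure D2:**
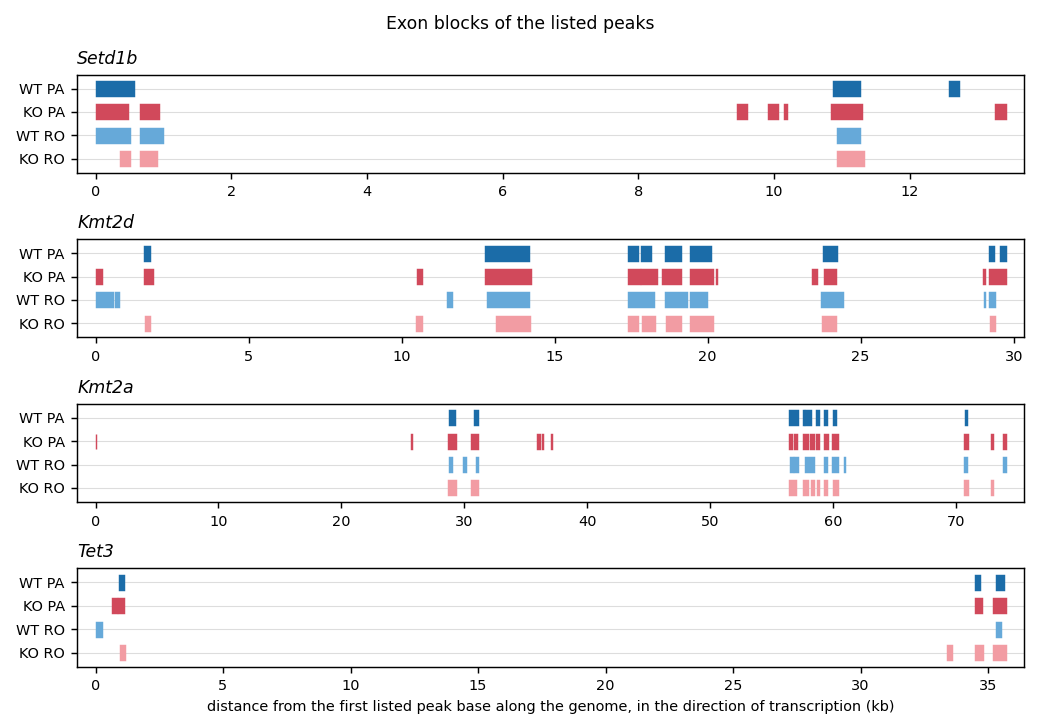
Exon blocks of the listed peaks of Setd1b, Kmt2d, Kmt2a and Tet3 in the 4 lists; the horizontal axis is the distance in kb from the first listed peak base in the direction of transcription. Regions with a peak in all 4 lists number 2 of 7 for Setd1b, 6 of 12 for Kmt2d, 7 of 12 for Kmt2a and 1 of 6 for Tet3, and KO PA has 3 Setd1b regions that no other list holds.

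In PA the 16 demethylases had 21 peaks in 10 genes in WT and 30 in 14 genes in KO. In RO they had 30 peaks in all 16 genes and 25 in 14. Kdm5a had 2, 4, 4 and 4 peaks, with the 5′ peak whose letters are given above in all but the first. Kdm4d, a demethylase of H3K9 that is abundant in testis, had 3, 3, 3 and 2. Kdm1b, and the Y-linked H3K4 demethylase Kdm5d, had peaks in both RO lists and in neither PA list. These were 2.22% of the members, against 2.19% of all genes with a peak. The Kdm5d peaks lay in different regions, in coding sequence in WT RO and in the 3′ untranslated region in KO RO. The 4 deacetylases carried few peaks: Hdac4 and Hdac6 had 1 each in WT PA, KO PA and KO RO, and Hdac1 and Hdac5 had 1 in KO PA alone. None of the 4 had a peak in WT RO, a list in which 80% of the members had one.

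Remodellers held 62, 76, 53 and 52 peaks in WT PA, KO PA, WT RO and KO RO. Chd6 had the most among protein-coding remodellers, with 5, 6, 4 and 5 peaks, all in coding sequence. Arid1a, a DNA-binding subunit of the SWI/SNF remodelling complex, had 2, 4, 4 and 2, and its paralog Arid1b had 2, 6, 0 and 3. Smarca2, an ATPase of that complex, had 1, 5, 0 and 1, and the other ATPase Smarca4 had 2 peaks in KO PA alone. Smarca5-ps carried 22 peaks over the lists (7, 2, 8 and 5), while its parent Smarca5 had 1 peak, in WT RO. How reads shared by the pseudogene and its parent were assigned is not given in the sources used here, so that both counts are uncertain. Bromodomain genes had 7, 16, 11 and 10 peaks.

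The 7 genes grouped under DNA methylation differed widely. Tet2 had 7 and 5 peaks in WT and KO PA and 6 and 3 in WT and KO RO, and Tet3 had 3, 4, 2 and 4. Tet1 had a single peak, in WT RO, with a fold of 12.1 in the authors' deposited table and a false discovery rate above 0.05. WT RO was also the library with the fewest Tet1 counts, 14, so that this peak rests on little input. Dnmt1, the maintenance methyltransferase, had 1 peak in KO PA and 1 in KO RO, spread over 6 and 5 exon blocks, with folds of 4.3 and 2.29 in the authors' deposited table. Dnmt3a, which sets new DNA methylation, had 1 peak in the 3′ untranslated region in WT PA, KO PA and KO RO and none in WT RO. Its fold in the authors' deposited table was 5.42, 17 and 82.7.

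A peak in every list was found for 52 of the 90 members (57.8%), against 34.4% of all genes with a peak. Another 19 members had a peak in 3 lists, 7 in 2 and 12 in 1. High counts go with more lists, and the difference was smaller among genes with a level of at least 10 CPM, the count of a gene relative to the size of its library, in all 4 libraries, at 60.7% against 47.8%. With at least 100 CPM it was 80% of 45 members against 65% of 1125 genes. Among members absent from a single list, 10 lacked a WT RO peak (Arid1b, Arid5a, Chd4, Dnmt3a, Hdac4, Hdac6, Setd3, Setd6, Smarca2 and Smarcc2), 8 lacked a WT PA peak and 1, Kdm2b, a KO RO peak. These were 11.1%, 8.89% and 1.11% of the members, against 6.69%, 6.41% and 2.29% of all genes with a peak. The 8 without a WT PA peak were Brd3, the H3K9 methyltransferases Ehmt1 and Ehmt2, Kdm4b, Kdm5c, Kdm6a, Setdb2 and Smarcad1.

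The 12 members with a peak in 1 list were spread over 3 of the lists. Hdac1, Hdac5, Prdm15, Prdm16 and Smarca4 had peaks in KO PA alone, Chd3os, Kmt5c, Prdm10, Smarca5, Smarcd2 and Tet1 in WT RO alone, and Prdm8 in WT PA alone. These were 5.56%, 6.67% and 1.11% of the members, against 7.53%, 14.3% and 4.17% of all genes with a peak. No member was listed in KO RO alone, against 5.31% of all genes. Chd3 and Dnmt1 were listed in both KO lists and in neither WT list, 2.22% of the members against 6.87% of all genes. In WT RO the authors' deposited table gave folds of 28.3 for Chd3os and 16.1 for Smarcd2, where the median of the members' peaks was 22.9. In the other lists the authors' deposited table gave 13.3 for Hdac5 in KO PA, where that median was 12.8, and 13.7 for Prdm8 in WT PA, where it was 12.1. At the level of regions, the 820 peaks merged into 292, of which 104 were found in all lists (35.6%, against 23.9% of regions of all genes) and 99 in 1 list. Of those 99, 48 were found in KO PA alone and 31 in WT RO alone, 16.4% and 10.6% of the members' regions, against 11.4% and 19% over all genes.

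Within a cell fraction, most WT peaks of the members overlapped a KO peak by at least 1 base. In PA this held for 88.2% of the 187 WT peaks, against 79.7% over all genes, and for 62.6% of the 246 KO peaks, against 56.6%. In RO it held for 74% of the 196 WT peaks, against 55.9%, and for 70.2% of the 191 KO peaks, against 58.9%. Between the fractions of KO mice, 89% of the RO peaks overlapped a PA peak, against 81.1% over all genes, and 68.7% of the PA peaks an RO peak, against 70%. Between those of WT mice the shares were 69.9% of the RO peaks, against 50.6%, and 70.6% of the PA peaks, against 64.1%.

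Coding sequence held a larger share of the members' peaks than of the peaks of all protein-coding genes. In WT PA it was 78.6% (exact binomial 95% interval 72% to 84.3%, counting error only) against 63.5% over all protein-coding genes, and in KO PA 78.9% (73.2% to 83.8%) against 61.5%. In WT RO it was 73% (66.2% to 79%) against 57.4%, and in KO RO 74.3% (67.5% to 80.4%) against 59.7%. The 3′ untranslated region held the smaller share: 8.02%, 10.2%, 11.7% and 12.6% of the members' peaks in WT PA, KO PA, WT RO and KO RO, against 23.3%, 24.3%, 28.3% and 26.9%. The members' shares include the pseudogenes Smarca5-ps and Kdm4dl. Over protein-coding members alone, coding sequence held 81.7%, 79.8%, 76.5% and 76.3% in the same order. Peaks of 1 gene are not independent, and the lengths of coding sequence and untranslated regions were not compared.

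**Figure D3:**
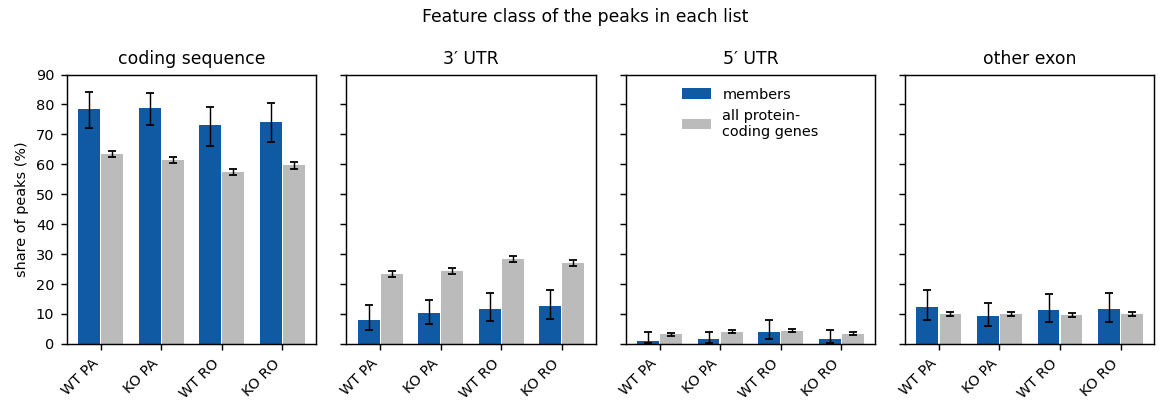
Share of peaks (%) by the authors' feature class in each list, for peaks of the members (blue, pseudogenes included) and of all protein-coding genes (grey). Bars start at 0 and error bars are exact binomial 95% intervals that cover counting error only. The coding-sequence bars of the members stand between 73% and 78.9%, above the grey bars at 57.4% to 63.5%.

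The roles differed in these classes. Methyltransferases had 70 of 80 WT PA peaks, 88 of 104 KO PA peaks, 77 of 89 WT RO peaks and 75 of 89 KO RO peaks in coding sequence. Of the 8 deacetylase peaks, 1 was in coding sequence, that of Hdac1. Brd2 stood apart with a region in its 5′ untranslated part in all 4 lists, the only member region of that class found in all of them. Members also had more peaks joined across several exons in KO PA, 32.9% against 21.2% over all genes, than in WT PA, 12.8% against 13.8%. The median fold of the members' peaks in the authors' deposited table was 12.1 and 12.8 in WT and KO PA and 22.9 and 14.9 in WT and KO RO, against 11.7, 13, 15.1 and 12.1 over all peaks.

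Levels of the members were taken from the input libraries, whose totals ranged from 9921365 (KO PA) to 13147239 counts (WT PA). Ratios are log2 differences of CPM scaled by trimmed-mean (TMM) factors, with exact binomial 95% intervals that cover counting error only and leave out the spread between animals. In these bulk samples fewer cells of a type and less RNA per cell cannot be told apart. Cell type markers differed between libraries of 1 fraction. The summed CPM of the 9 of 16 pachytene markers that had a symbol was 2880 and 1630 in WT and KO PA and 2560 and 1860 in WT and KO RO, so that the WT libraries were highest in both fractions. That of 6 of 12 round spermatid markers was 183, 221, 406 and 283, and that of 5 of 9 late spermatid markers 236, 549, 361 and 1090. The somatic lists moved as well: 3 of 7 Leydig cell markers summed to 155, 45.3, 47.7 and 17.3, 5 of 8 Sertoli cell markers to 254, 328, 180 and 206, and all 4 endothelial markers to 150, 193, 92.1 and 209. Sums were 33.4, 63.9, 24 and 47.2 for 4 of 9 spermatogonial markers and 3.07, 16.8, 8.08 and 24.8 for 2 of 5 macrophage markers. Of 4 peritubular markers 1 had a symbol, Myh11, with 285, 272, 143 and 226 CPM. Sums lean on the most abundant markers, such as Sycp2 with 1780 of the 2880 pachytene CPM in WT PA. In each fraction 2 of the 9 pachytene markers were higher in KO and 7 lower. In PA 2 of the 5 Sertoli markers were higher in KO and 3 lower. The part of these markers in the results was not tested. No marker with a symbol was at 0 in any library. Alkbh5 itself has no symbol in the lists and was not analysed here, so the genotype labels were not checked on it.

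In PA cells 57 of the 90 members were lower in KO than in WT with TMM scaling (63.3%, against 48.6% of all genes) and 39 with total-count scaling (43.3% against 37.5%). With TMM scaling, 8 were at least 2-fold lower in KO and 1 was at least 2-fold higher, beside 19.9% of all 24331 genes lower and 23.8% higher (43.7% either way). The share was lower among better counted genes: among genes with a listed peak and at least 10 CPM in the higher library, 22.4% were past 2-fold, against 8.14% of the 86 members at that level. The median log2 ratio was -0.19 for the members and 0.04 for all genes. At 10 CPM or more it was -0.19 for members and -0.06 for genes with a listed peak. At 30 CPM or more the medians were -0.2 and -0.12. The members' direction depends on the scaling. With libraries scaled to their total counts alone, 4 members were at least 2-fold higher and 3 lower. The medians of members and all genes were then 0.1 and 0.35.

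Smarcc2, a core subunit of SWI/SNF complexes, was the lowest in KO among members with at least 10 CPM. Its level was 505 and 173 CPM in WT and KO PA and 323 and 180 in WT and KO RO, so that both KO libraries lay below both WT libraries. The log2 ratio in PA was -1.55 (-1.63 to -1.47). Setd1b had 147 and 59.1 CPM in WT and KO PA and 164 and 67.8 in WT and KO RO. Its log2 ratio was -1.31 (-1.45 to -1.18) in PA and -1.27 (-1.4 to -1.15) in RO, and it stayed past 2-fold under every scaling. Setd1b was the 1 member of 84 past 2-fold lower in both fractions, beside 5.85% of all genes with at least 10 CPM in both comparisons. None of the 84 was higher in both, beside 4.37%.

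The other genes lower in KO PA came from several roles. Kmt2b, an H3K4 methyltransferase, had 805 and 372 CPM in WT and KO PA, a log2 ratio of -1.11. In RO it had 769 and 385 CPM in WT and KO and a log2 ratio of -1 (-1.05 to -0.95). That lies at the threshold, so that Setd1b differs little from Kmt2b in passing it in both fractions. Brd8, a subunit of the TIP60 acetyltransferase complex, had 877 and 388 CPM and a log2 ratio of -1.18. Chd9 had 249 and 110 CPM and a log2 ratio of -1.19. The log2 ratio was -1.07 for Kdm5d, at 61 and 28.9 CPM, and -1.02 for Setd6, at 12.8 and 6.19 CPM. With libraries scaled to their total counts these 5 genes, Kmt2b, Brd8, Chd9, Kdm5d and Setd6, were no longer past 2-fold, while Arid3a, Kdm1b and Kdm6a were, in the higher direction. Prdm8, for which KO PA had 0 counts and WT PA 28, was at least 8.61-fold lower, taking 3 counts as the floor of the KO PA library. The gene past 2-fold higher was the pseudogene Kdm4dl, with 41 counts in KO PA and 19 in WT PA, some of which may be shared with Kdm4d. In the same comparison 2 of the 9 pachytene markers and all 3 Leydig markers were at least 2-fold lower. At least 2-fold higher were 4 of the 5 late spermatid, 3 of the 6 round spermatid, 1 of the 4 spermatogonial and both macrophage markers. Their part in these ratios was not tested.

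In RO cells 5 members were at least 2-fold lower in KO and 6 higher, beside 19% and 23% of all genes (42.1% either way) and 22.1% either way of genes with a listed peak and at least 10 CPM. At that level 10.7% of the 84 members were past 2-fold. The members' median log2 ratio was -0.1, and 0.04 over all genes. At 10 CPM or more it was -0.12 for members and -0.07 for genes with a listed peak. At 30 CPM or more the medians were -0.14 and -0.12. With total-count scaling 8 members were higher and 5 lower, with a median of 0.08.

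Of the 3 Tet genes, which act in DNA demethylation, Tet3 and Tet1 were past 2-fold higher in KO RO and Tet2, at a log2 ratio of -0.16, was not. Tet3 had 47.4 and 72.7 CPM in WT and KO PA and 19.8 and 82.3 in WT and KO RO. The log2 ratio of KO to WT in RO was 2.04 (1.84 to 2.27). Tet1 had 6.99, 4.25, 1.22 and 7.03 CPM in the same order and a log2 ratio of 2.37 (1.7 to 3.47) in RO, from 77 against 14 counts. For both genes WT RO was the lowest of the 4 libraries. Smarcd3, a subunit of SWI/SNF complexes, was also lowest in WT RO, with 17.5, 11, 1.82 and 7.49 CPM and a log2 ratio of 1.94 (1.33 to 2.8).

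Prdm9, Prdm15 and Kdm6a were the other members higher in KO RO. Prdm9 had 23.2 and 21.6 CPM in WT and KO PA and 12.8 and 29.5 in WT and KO RO, a log2 ratio of 1.19 in RO. Prdm15 had 19.7 and 43.8 CPM in WT and KO RO, a log2 ratio of 1.15. Kdm6a, an X-linked demethylase of lysine 27 on histone H3, had 33.6, 61, 19.4 and 41.4 CPM and was higher in KO in both fractions, with log2 ratios of 0.86 in PA and 1.09 in RO. WT RO was the lowest library for all 3 of these genes. The same library was lowest for the endothelial, spermatogonial, peritubular and Sertoli marker sums. In RO, 3 of the 4 endothelial, 2 of the 4 spermatogonial, both macrophage, 1 of the 6 round spermatid and all 5 late spermatid markers were at least 2-fold higher in KO. At least 2-fold lower were 2 of the 3 Leydig and 1 of the 9 pachytene markers, and their part in these ratios was not tested.

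Kdm4d was the lowest in KO RO. It had 57.9 and 33.7 CPM in WT and KO PA and 63.8 and 18.5 in WT and KO RO, and a log2 ratio of -1.77 (-2.01 to -1.56) in RO. Smarcal1, an annealing helicase that acts at stalled replication forks, had 44.8, 31.1, 58.8 and 19.5 CPM and a log2 ratio of -1.58. Smarcd2, a SWI/SNF subunit related to Smarcd3, had 81, 42.4, 75 and 29.9 CPM and a log2 ratio of -1.32, the opposite sign to its paralog. Kmt2d had 960, 502, 939 and 404 CPM and a log2 ratio of -1.22 in RO, with both KO libraries below both WT libraries. Its peak number, given above, was 9 and 9 in WT and KO RO. Over the 5 genes lower in KO RO the number of peaks was 17 in WT and 15 in KO, and over the 6 higher genes 8 and 8.

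**Figure D4:**
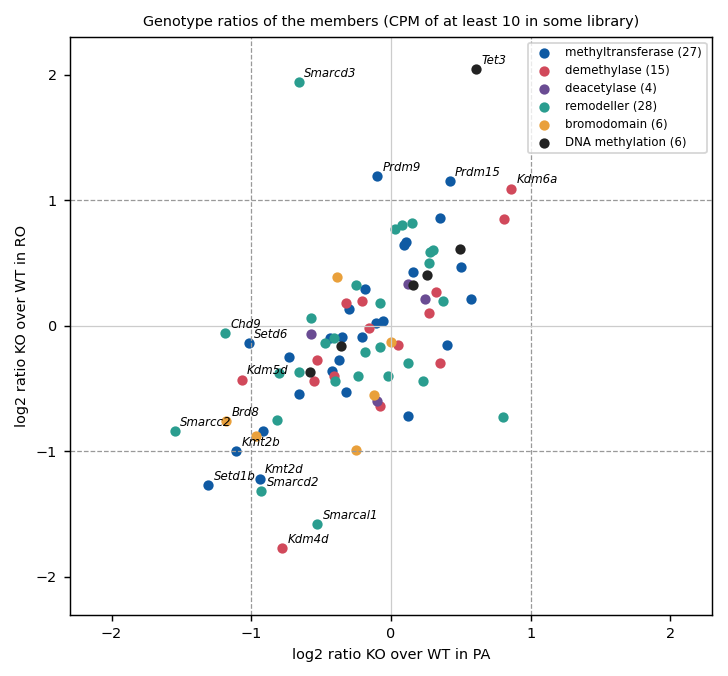
Log2 ratio of KO over WT in PA (horizontal) against RO (vertical) for the 86 members with at least 10 CPM in some library, coloured by role; dashed lines mark 2-fold. Setd1b lies past 2-fold lower on both axes, Tet3 and Smarcd3 past it in RO alone, and most other genes inside the dashed square.

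Between the cell fractions of WT mice, 6 members were at least 2-fold lower in RO than in PA and 2 higher, beside 18.7% and 21.6% of all genes (40.2% either way) and 17.3% either way of genes with a listed peak and at least 10 CPM. At that level 8.14% of the 86 members were past 2-fold. The members' median was -0.2, against 0.01 over all genes, and 67 of 90 were lower in RO (74.4%, against 49.7% of all genes). At 10 CPM or more the median was -0.2 for members and -0.04 for genes with a listed peak. With total-count scaling the medians of members and all genes were -0.11 and 0.11, and 60 of 90 members were lower (66.7%, against 44.9%). Chd5, a remodeller that acts in spermatids before histones are removed, had 438 and 514 CPM in WT and KO PA and 999 and 736 in WT and KO RO. The RO libraries were the higher ones in both genotypes, with log2 ratios of 1.19 in WT and 0.52 in KO. Arid3a, a DNA-binding protein of the ARID family, had 20.6, 36.1, 60.9 and 36.6 CPM, a log2 ratio of 1.55 in WT and 0.02 in KO.

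All 3 Tet genes were past 2-fold lower in WT RO than in WT PA. The log2 ratio was -2.36 for Tet1, -1.25 for Tet3 and -1.14 for Tet2, which had 101 and 78.7 CPM in WT and KO PA and 45.8 and 41.1 in WT and KO RO. Tet2 was low in RO in both genotypes, with a log2 ratio of -0.93 in KO. For Tet1, Tet3 and Smarcd3 (log2 ratio -3.14) this comparison shares the WT RO library with the comparison of genotypes in RO, so that the low values of that library enter both. Dnmt1, at 146, 174, 115 and 152 CPM, and Dnmt3a, at 56.7, 79.7, 49.9 and 76.3, stayed within 2-fold in all 4 comparisons and were higher in KO than in WT in both fractions. Uhrf1bp1, at 52.4, 58.6, 65.1 and 81.2 CPM, and Uhrf1bp1l, at 261, 175, 243 and 189, also stayed within 2-fold.

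Arid5a was the 1 member of 85 lower past 2-fold in RO in both genotypes, beside 1.18% of all genes, and none was higher in both, beside 1.4%. It had 43.4 and 44.3 CPM in WT and KO PA and 11.6 and 20 in WT and KO RO. Its log2 ratio was -1.88 (-2.18 to -1.62) in WT and -1.14 (-1.38 to -0.91) in KO. In WT, 4 of the 6 round spermatid markers were at least 2-fold higher in RO, and in KO 1 of the 6. In WT, 2 of the 4 endothelial and 2 of the 4 spermatogonial markers were at least 2-fold lower in RO. Of the pachytene, spermatogonial, late spermatid and macrophage lists, 1 marker each was at least 2-fold higher. In KO, 2 of the 5 late spermatid and 1 of the 4 spermatogonial markers were at least 2-fold higher. No pachytene marker was at least 2-fold lower in RO in either genotype. The median log2 ratio of the 9 was -0.04 in WT and 0.09 in KO. All 3 Leydig markers were at least 2-fold lower in RO in both genotypes. Their part in the stage ratios was not tested.

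Between the cell fractions of KO mice the members differed least. There were 2 members at least 2-fold lower in RO and 1 higher, beside 15.2% and 17.5% of all genes (32.7% either way). At 10 CPM or more 1.18% of 85 members were past 2-fold, beside 7.8% of genes with a listed peak. The 3 members past 2-fold were Arid5a, the pseudogene Kdm4dl (41 counts in PA and 15 in RO) and Prdm8, which with 38 counts in KO RO and 0 in KO PA was at least 12.5-fold higher against a floor of 3 counts. Hdac6, a cytoplasmic deacetylase, was just inside the threshold, with 119 CPM in KO PA, 61.2 in KO RO and a log2 ratio of -0.95.

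**Figure D5:**
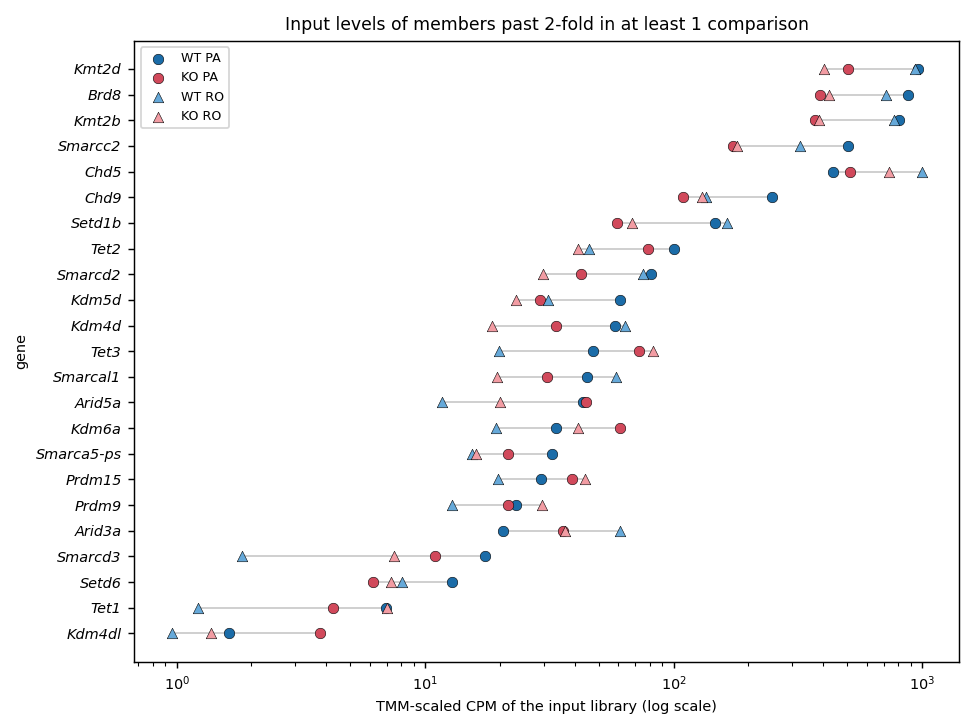
TMM-scaled CPM (log axis) of 23 of the 24 members past 2-fold in at least 1 of the 4 comparisons, 1 row per gene and 1 point per input library; circles are PA, triangles RO, blue shades WT and red shades KO. Prdm8, the other one, is left out because KO PA had 0 counts. WT RO is the lowest point for Tet1, Tet3, Smarcd3, Prdm9, Prdm15, Kdm6a, Arid5a, Kdm4dl and Smarca5-ps. Both KO points lie left of both WT points for Kmt2b, Kmt2d, Brd8, Smarcc2, Setd1b, Smarcd2, Smarcal1, Kdm4d, Kdm5d, Chd9 and Setd6.

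By role, the ratios of KO to WT spread around different medians. The median log2 ratio in RO was 0.4 for the 7 genes under DNA methylation, -0.09 for the 16 demethylases, -0.09 for the 28 methyltransferases, -0.17 for the 29 remodellers and -0.65 for the 6 bromodomain genes, 5 of which were below 0. In PA the bromodomain genes had a median of -0.32, again with 5 of 6 below 0, beside 48.6% of all genes in PA and 48.5% in RO. With total-count scaling the bromodomain medians were -0.03 in PA, with 3 of 6 below 0, and -0.47 in RO, with 4 of 6. That scaling also turned the RO medians of demethylases, methyltransferases and remodellers above 0, to 0.09, 0.09 and 0.01. Brd9, a subunit of a non-canonical SWI/SNF complex, had 337 and 172 CPM in WT and KO PA, and Brd3 had 140 and 70.3 in WT and KO RO, both just inside 2-fold. The 4 deacetylases had medians of 0.01 in PA and 0.07 in RO.

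Related genes outside the naming rule were followed in lists of other chromatin regulators. Of 30 Polycomb genes, 18 had a symbol, and 2 of them, Phf1 and Cbx7, were at least 2-fold lower in KO in both fractions, Phf1 with log2 ratios of -1.36 and -1.38 and Cbx7 with -1.36 and -1.4. In RO 1 Polycomb gene was higher past 2-fold. None of 10 histone acetyltransferase genes (of 13 listed) was past 2-fold in PA, and in RO Trrap, at 1200 CPM in WT and 574 in KO, was. Of 9 other methyltransferase genes (of 16), 2 were at least 2-fold higher in KO in both fractions. They were the H3K9 methyltransferases Suv39h1, with log2 ratios of 2.08 in PA and 1.09 in RO, and Suv39h2, with 2.94 and 1.19. Of 28 complex partners (of 42), 4 were lower and 1 higher past 2-fold in PA, among them Brdt, the testis bromodomain protein, with 576 and 232 CPM in WT and KO PA. In RO 1 partner was higher and none lower. Of the 8 other deacetylases and demethylases (of 13), 2 were lower in both fractions past 2-fold, Sirt7 and Phf2, and 1, Riox2, was higher in PA. Of 8 readers of methylated DNA and related genes (of 15), 2 were lower in PA. With total-count scaling 2 complex partners and none of these readers were past 2-fold lower in PA, and no acetyltransferase gene was in RO. That scaling put 3 Polycomb genes, 1 acetyltransferase gene and 2 complex partners past 2-fold higher in PA, and 2 complex partners in RO. These counts stand beside the same background shares as those of the members.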

How the data were processed

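Reads were processed by the authors. The submitters' processing notes list cutadapt 2.5, HISAT2 2.1.0, HOMER 4.10.4 and build mm10 without a role for each, and the counting tool, annotation, strand setting and peak caller are not given in the sources used here. The authors deposited raw gene counts of the 4 input libraries, and 1 peak list per genotype and cell fraction, each assigned by its name alone. Per the file headers a peak has exon blocks, a feature class, a fold enrichment (a ratio of immunoprecipitated over input), a p-value and a log10 false discovery rate, which was treated as a score. Per the file headers counts are by Ensembl identifier, and symbols came from the peak lists.

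Counts were scaled with TMM factors (0.892 and 1.09 for WT and KO PA, 0.953 and 1.08 for WT and KO RO; edgeR 4.0.16, R 4.3.3) and given as log2 CPM (prior count 2). A comparison took in genes reaching 1 CPM in 1 of its libraries, and a log2 ratio of 1 or more either way counts as past 2-fold. A library at 0 counts was set to 3 counts for a ratio, which leaves out the counting error of the other library. Peaks were compared by exon blocks on 1 strand with at least 1 bp shared, and merged over the lists into regions. Intervals are exact binomial at 95%. The scripts, in Python 3.11.15 (numpy 2.4.6, pandas 2.3.3, scipy 1.17.1, matplotlib 3.10.9), were tested on simulated data.

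Genes named with values were, by rule, the 10 members with the most peaks, the 4 highest and 4 lowest per comparison at a CPM of at least 10, the peaks with the highest folds per list, single-list members with the highest folds, members past 2-fold in both of a pair of comparisons, and all Dnmt, Uhrf and Tet genes. Other genes named, including the rest of those past 2-fold and those just inside it, were chosen after their values were seen. The members, lists and rules were chosen with earlier results of these data known. Alternatives tried were DESeq2 1.42.0 size factors, total-count scaling, a prior count of 0.5, other CPM filters, stricter peak thresholds and a reciprocal overlap of 50%. Immunoprecipitated read counts were not analysed here. The values of some single genes are not reported here, though totals over all members include them.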

Additional observations from a re-analysis of the deposited data

Results flagged for a closer look

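Opposite signs under the same contrast were common. Among genes with at least 10 CPM in both comparisons, the KO to WT ratio had the same sign in both fractions for 65 of 84 members (77.4%, against 71% of all genes). For RO to PA it had the same sign in both genotypes for 51 of 85 members (60%, against 63.1%). No member was past 2-fold in opposite directions, beside only 0.48% of all genes for KO to WT and 0.398% for RO to PA. The genes below were picked among those of opposite sign at any level. None of their differences was tested, as each rests on 1 library per group. Arid3a had a log2 ratio of KO to WT of 0.8 in PA and -0.73 in RO. Smarcd3 had -0.66 in PA and 1.94 in RO, and Tet1 -0.69 in PA and 2.37 in RO, both at under 20 CPM in every library. For Tet1 the log2 ratio of RO to PA was -2.36 in WT and 0.7 in KO, and this difference is the same arithmetic on the same 4 libraries as the one between fractions.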

How the results depend on the processing

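No paired analysis was possible because the labels give no replicate numbers and each group has 1 library. With libraries scaled to their total counts, the members' median log2 ratio of KO to WT in PA turned from -0.19 to 0.1, that in RO went from -0.1 to 0.08, and that of RO to PA in WT from -0.2 to -0.11. The median of all genes moved with it, from 0.04 to 0.35 in PA. With a filter of 10 CPM, 1 member in place of 3 was past 2-fold between the fractions of KO mice. With a reciprocal overlap of 50%, the shares of shared peaks fell to 66.8% of WT and 50.8% of KO peaks in PA and to 50% and 51.3% in RO. DESeq2 size factors, a prior count of 0.5 and no filter on low counts moved none of the counts of members past 2-fold. A false discovery rate under 0.05 or a fold of at least 5 left the number of members with a peak in each list, and in all lists, within 1.5 times its value. Low counts limit Tet1, Kdm4dl, Prdm8 and Chd3os most.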
